A study of Mus musculus with 6 samples.

Results

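The genes described here are 42 chromatin regulators linked to autism or intellectual disability, measured by RNA sequencing in the cortex of fetal male mice whose dams received bisphenol A (BPA) or vehicle. The rule selects them by name. The gene symbols of the deposited table matched 41 of the 42 among 45583 rows, and all 41 had enough counts to enter the test with 13741 genes in total. The remaining gene, Kmt5b, stood in the table under its older symbol, Suv420h1, and its values are given separately. BPA is a plastics monomer that binds estrogen receptors, and the comparison asked whether exposure in mid-gestation changed gene expression in the fetal cortex.

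Dams of the Cyp19-EGFP strain, which carries a bacterial artificial chromosome with the aromatase gene and an EGFP reporter, were injected from GD10.5 to GD14.5. The BPA group received 50 µg/kg, and the vehicle group was labelled as peanut oil. In the paper, BPA was given in ethanol and peanut oil, and a supplementary legend describes the vehicle as ethanol in peanut oil. Cortex was labelled as taken at GD15.5 from fetuses of genotype "WT, SRY +" in both groups, and each group held 3 libraries, each from a different fetus. The methods of the paper give the same day, while its results text gives a later one. The labels do not say which fetuses were littermates, so the p-values below measure only the spread between these libraries. Libraries held 3444601 to 7180835 counts, with BPA replicate 3 the shallowest. The 12 dorsal cortex markers were all measured, 9 of them higher and 3 lower in the BPA libraries, and 0 of them passed the test. The 11 markers of the ventral telencephalon were all lower in the BPA libraries, 5 of them at an unadjusted p under 0.05 and 0 of them past the adjusted threshold. Over all genes tested, 1.18% were lower at that unadjusted threshold. The ventral markers summed to 1090 to 1230 CPM (counts scaled to a common library size) in vehicle and 939 to 1040 CPM in BPA. Lhx8 and Nkx2-1 differed most, with log2 fold changes (BPA minus vehicle) of -1.34 and -1.25. The other ventral markers lay between -0.426 (Gsx2) and -0.085 (Gad1). Of the 6 choroid plexus markers, Ttr and Clic6 had enough counts to be tested, and together they summed to 206 CPM in vehicle replicate 2 and 327 CPM in BPA replicate 2, against 2.79 to 15.4 CPM in the other 4 libraries. The 9 radial glia markers (7 lower in BPA), the 10 markers of postmitotic neurons (9 lower) and the 8 of microglia (5 lower) had 0 genes at an unadjusted p under 0.05, and of 5 red blood cell genes tested 4 were lower, 1 of them under that threshold. Of 9 vessel and meningeal genes tested, 7 were lower and 0 were under it. What part these cell types had in the values below was not tested. In bulk tissue, fewer cells of a type and less RNA per cell cannot be told apart.

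Chromatin regulators set which stretches of DNA are open to transcription. ATP-dependent remodellers, such as the CHD proteins and the BAF complex, slide or evict nucleosomes. Writers and erasers add or remove methyl and acetyl groups on histone tails, and readers bind them. Loss of 1 copy of many of these genes in people causes intellectual disability or autism, and in the fetal cortex they act in both progenitors and newborn neurons.

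Promoters of these genes were mostly rich in CpG dinucleotides. RefSeq windows of 300 bases (250 before to 50 after the transcription start, GRCm38.p6) were matched for 30 of the 42 genes, with 34 windows in all. The median window held 31.5 CpG, against 7 over 32851 windows of all genes, and 76.5% held at least 20, against 26.5%. The windows of all genes cover 27025 symbols, while 13741 genes had enough counts to be tested here. A comparison with the genes tested alone was not made. The palindromic estrogen response element GGTCANNNTGACC, which reads alike on both strands, was in 0 of the 34 windows and in 23 of all windows (0.07%). At a share this low, 0 of 34 windows could be expected of any set of genes, so this count does not set these genes apart. The shorter core GGTCA, counted on either strand and present in each copy of the full element, was in 17.6% of the windows of these genes and 40.5% of all windows. The median GC content also differed, at 69.7% in the windows of these genes and 52.7% in all windows, and its part in this difference was not tested. The last 250 bases before the start of Chd8, which is among the most cited autism genes, and of Kmt2d, whose values spread most over the libraries, are given below with each CG in capitals, 20 in the first and 26 in the second. They lie at chr14:52257761-52258010 and chr15:98871206-98871455 of GRCm38.p6, both on the minus strand.
Chd8: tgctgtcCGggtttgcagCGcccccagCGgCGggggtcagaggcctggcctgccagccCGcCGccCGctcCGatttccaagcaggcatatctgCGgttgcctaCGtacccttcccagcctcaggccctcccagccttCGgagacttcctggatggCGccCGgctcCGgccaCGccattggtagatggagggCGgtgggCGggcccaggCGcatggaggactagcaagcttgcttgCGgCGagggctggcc
Kmt2d: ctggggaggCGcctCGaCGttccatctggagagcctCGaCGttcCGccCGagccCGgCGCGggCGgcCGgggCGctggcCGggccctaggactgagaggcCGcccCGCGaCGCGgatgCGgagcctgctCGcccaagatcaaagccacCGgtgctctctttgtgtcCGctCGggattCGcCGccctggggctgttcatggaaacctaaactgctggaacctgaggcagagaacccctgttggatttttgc

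Per kilobase of exonic length, the 3 highest genes were Chd3, a remodeller of the NuRD complex, and the BAF subunits Smarcc2 and Smarca4. Chd3 had a level of 164 CPM per kb (145 to 177 over the libraries), Smarcc2 160 (147 to 181) and Smarca4 139 (128 to 154). Their library ranges overlapped, so the order of these 3 is not set by these data. Chd4, its paralog in NuRD, came next at 79.1 CPM per kb (69.3 to 86.8), clear of the ranges above it and of Arid1a below it (52.5, 46.5 to 59.8). The median of the 41 genes was 21.1 CPM per kb. At the low end, Setd1a and Eed had nearly equal levels of 7.43 and 7.45 CPM per kb, Hdac4 had 4.88 and Adnp had 0.359.

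**Figure D1:**
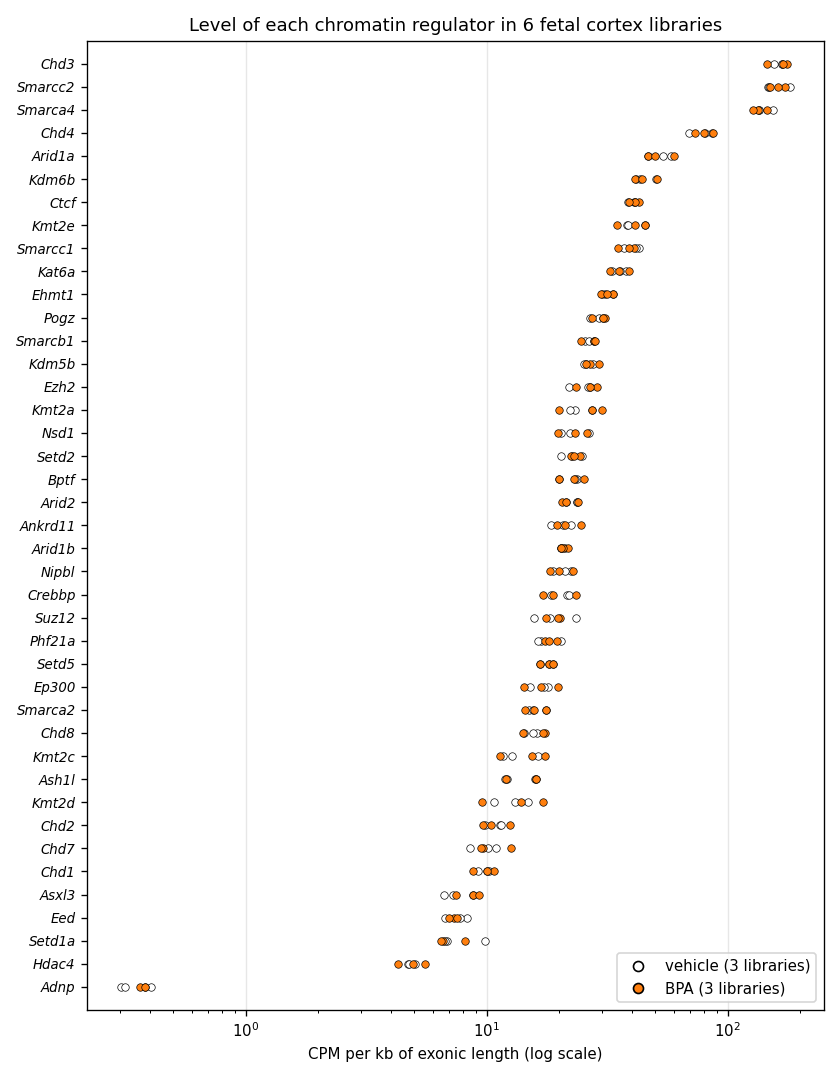
Level of each of the 41 chromatin regulators in CPM per kb of exonic length (log axis), with genes ordered by their mean and 1 point per library (white, 3 vehicle libraries; orange, 3 BPA libraries). Levels run from Adnp at 0.359 to Chd3 at 164, and vehicle and BPA points lie among each other for each gene.

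Adnp, a homeodomain and zinc-finger protein whose mutation causes a syndromic form of autism, stood apart from the other 40 genes by its counts. The libraries held 7 to 13 reads of it, against 92 to 10121 reads of the other genes. In GENCODE M21, 82.1% of its exonic bases and 100% of its 3324 coding bases also lie in exons of Gm20716, a longer gene on the same strand (chromosome 2, 168180986 to 168230364, GRCm38). Of the 50-base words in its transcripts, the length of a read here, 80.54% also occur in transcripts of Gm20716. Gm20716 was in the table with 0 counts in each library. The stretch below, from the largest coding exon of Adnp (chr2:168183586-168183635, GRCm38, minus strand), shows a read's length that the annotation gives to both genes.
Adnp: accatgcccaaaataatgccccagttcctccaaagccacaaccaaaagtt
Gm20716: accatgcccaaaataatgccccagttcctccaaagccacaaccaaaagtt
The part of this overlap in the low count was not tested, and the level of Adnp is uncertain. Setd1a shares 51.8% of its exonic bases with Gm49388 on the same strand, a gene that, unlike Gm20716, has no row in the deposited counts. Chd2 shares 18.4% with 1810026B05Rik, which held 126 to 256 counts. Hdac4 shares 22.4% with Gm26720 on the opposite strand, which held 0 counts in each library.

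None of the 41 genes passed the test for a change with BPA. At an adjusted p of 0.1, edgeR's quasi-likelihood test with Benjamini-Hochberg adjustment called 0 of the 13741 genes (0%) and 0 of these 41, and the adjusted p of each of the 41 was 1. At an unadjusted p under 0.05, 140 genes were higher in BPA (1.02%) and 162 lower (1.18%), again with 0 of the 41 in either direction. DESeq2 called 3 genes over the whole table, the classic exact test of edgeR 2 and limma-voom 0, with 0 of the 41 in each. The libraries of the groups did not overlap for 439 genes that were higher in BPA (3.19%) and 489 that were lower (3.56%), and for 0 of the 41. Of the 41, 28 had a value higher in BPA and 13 lower, and over all genes tested 50.5% were higher. Over the alternative settings given at the end, 34 of the 41 changed sign at least once. The median log2 fold change (BPA minus vehicle) was 0.018, against 0.002 over all genes tested. Among the longest genes tested (6994 bases and over), which held 32 of the 41, the median was 0.019. For 40 of the 41 genes, the difference between groups was smaller than the spread within groups (SD of log2 CPM), the exception being Adnp.

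The 95% intervals, taken gene by gene, describe how large a change the spread between these libraries leaves room for. Like the p-values, they treat the libraries as independent, and which fetuses were littermates is not known. For 40 of the 41 genes the interval lay within 1.5-fold in either direction, against 71.2% of all genes tested. The exception was Adnp, whose interval ran from 0.667- to 1.86-fold. Over the other 40 genes, the lowest bound was 0.724-fold (Setd1a) and the highest 1.35-fold (Kmt2c). The median SE of the log2 fold change was 0.107 over the 41 genes, against 0.147 over all genes tested. The 40 genes other than Adnp held 92 to 10121 counts per library, while all genes tested were held only to a minimum count of 10. No share was taken over genes matched for counts, so the contrast with 71.2% does not speak to a response to BPA.

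**Figure D2:**
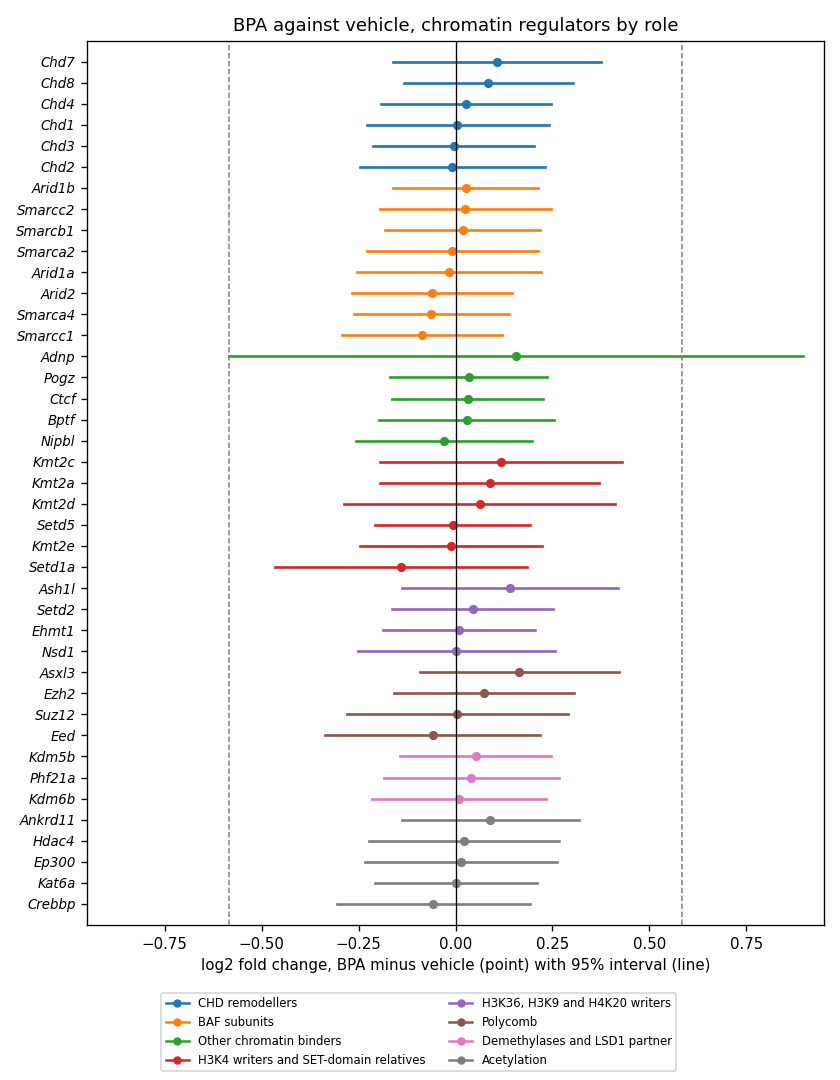
Log2 fold change of each of the 41 chromatin regulators (point; BPA minus vehicle, edgeR) with its 95% interval (line), grouped and coloured by role, with dashed lines at 1.5-fold in either direction. The points run from -0.14 (Setd1a) to 0.17 (Asxl3), each interval spans 0, and only that of Adnp crosses the dashed lines.

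The CHD remodellers are ATP-driven motors, and Chd8 is the one most often mutated in autism. Of the 6 measured, 4 were at higher and 2 at lower values in BPA, with log2 fold changes of -0.01 (Chd2) to 0.11 (Chd7). Chd8 read 267, 257 and 236 CPM in vehicle replicates 1 to 3 and 289, 234 and 284 in BPA replicates 1 to 3. Its groups overlapped, since BPA replicate 2 was the lowest of the 6 libraries and BPA replicate 1 the highest. The log2 fold change of Chd8 was 0.09 (SE 0.103, unadjusted p = 0.419), and its interval ran from 0.912- to 1.23-fold. Chd7, the gene of CHARGE syndrome, had 139, 151 and 117 CPM in vehicle and 174, 133 and 131 in BPA. A single BPA library lay above the vehicle range, and the other two lay inside it (log2 fold change 0.11, SE 0.127, unadjusted p = 0.41). Chd4 was at 687, 643 and 556 CPM in vehicle and 696, 584 and 641 in BPA (log2 fold change 0.03, SE 0.103). Chd3 gave 1420, 1420 and 1310 CPM in vehicle and 1490, 1230 and 1430 in BPA (log2 fold change -0.01, SE 0.0976). Both NuRD remodellers had their highest library in BPA replicate 1. Chd1, which binds methylated H3K4 at active genes, and Chd2, mutated in childhood epilepsy, had log2 fold changes of 0.01 and -0.01.

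BAF complexes hold a single ATPase, Smarca4 or Smarca2, on a core of Smarcc1, Smarcc2 and Smarcb1, with an ARID subunit that marks the type of complex. Values of 3 of the 8 subunits were higher in BPA and 5 lower, and their median log2 fold change was -0.01. Smarca4 (BRG1) read 877, 997 and 877 CPM in vehicle and 941, 866 and 828 in BPA, a log2 fold change of -0.06 (SE 0.0947). Smarca2 (BRM) read 252, 213 and 221 CPM in vehicle and 225, 206 and 252 in BPA (log2 fold change -0.01, SE 0.104). Per kilobase, Smarca4 stood at 139 CPM and Smarca2 at 16, with ranges that did not overlap. Arid1b, whose loss of 1 copy causes Coffin-Siris syndrome, was the steadiest of the 41 genes. It had 255, 266 and 255 CPM in vehicle and 274, 260 and 256 in BPA, a spread of 1.08-fold over the 6 libraries (log2 fold change 0.03, SE 0.0887). Its paralog Arid1a and the PBAF subunit Arid2 had log2 fold changes of -0.02 and -0.06. Smarcc1 (BAF155) had the smallest unadjusted p of the 8. Its libraries stood at 337, 325 and 292 CPM in vehicle and 321, 304 and 274 in BPA (log2 fold change -0.09, SE 0.0974, unadjusted p = 0.392). Smarcc2 was at 815, 1010 and 827 CPM in vehicle and 960, 902 and 832 in BPA, and Smarcb1 spread over 1.14-fold.

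As progenitors become neurons, BAF complexes exchange several subunits. Of the progenitor subunits, Actl6a averaged 41.4 ± 3.27 CPM in the vehicle libraries and 46.8 ± 9.45 in the BPA libraries (SD, n = 3), and Ss18 averaged 57.3 ± 9.93 and 60.8 ± 6.97. In the same order, Phf10 averaged 66.1 ± 2.07 and 63.3 ± 4.77 CPM, and Dpf2 114 ± 8.69 and 111 ± 11.2. The neuronal counterparts Actl6b, Dpf1 and Ss18l1 had levels of 39.7, 37.3 and 45.7 CPM per kb, above the 11.3 of Actl6a, the 13.2 of Phf10, the 17.3 of Dpf2 and the 6.27 of Ss18, with ranges that did not overlap. Dpf3, the other neuronal subunit, was lowest at 3.61 CPM per kb. The log2 fold changes of these 8 subunits lay between -0.08 (Ss18l1) and 0.19 (Actl6a), and the unadjusted p of Actl6a, the smallest, was 0.194.

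Methylation of H3K4, a mark of active promoters and enhancers, is written by the KMT2 and SETD1 enzymes, while Kmt2e and Setd5 are relatives with little or no such activity of their own. Among the 6 genes, values of 3 were higher and of 3 lower, with a median log2 fold change of 0.03. This set had the widest spread over libraries of the roles, a median of 1.52-fold against 1.24-fold over the 41 and 1.38-fold over all genes tested. It was also the longest by role, with a median exonic length of 17508.5 bases against 10737 over the 41. Within the set, Kmt2a, Kmt2c and Kmt2d (16670 to 20291 bases) spread over 1.52- to 1.78-fold. Setd5 (18347 bases) spread over 1.14-fold, Kmt2e (10444 bases) over 1.31-fold and Setd1a (6795 bases) over 1.53-fold. Kmt2a, the gene of Wiedemann-Steiner syndrome, read 454, 389 and 369 CPM in vehicle and 503, 331 and 455 in BPA (log2 fold change 0.09, SE 0.133, unadjusted p = 0.518). Kmt2c, mutated in Kleefstra syndrome 2, read 330, 259 and 236 CPM in vehicle and 355, 230 and 312 in BPA (log2 fold change 0.12, SE 0.147, unadjusted p = 0.434). Kmt2d, the Kabuki syndrome gene, named here after its values were seen, read 297, 261 and 214 CPM in vehicle and 340, 191 and 276 in BPA. In all 3 genes BPA replicate 1 was the highest and BPA replicate 2 the lowest of the 6 libraries, so the BPA range enclosed the vehicle range. Setd1a, a schizophrenia risk gene, had the most negative value of the 41 genes. It read 46.5, 67 and 45.6 CPM in vehicle and 55.4, 44.9 and 43.8 in BPA (log2 fold change -0.14, SE 0.153, unadjusted p = 0.373). Vehicle replicate 2 alone was high, and the other 5 libraries lay between 43.8 and 55.4 CPM. Kmt2e and Setd5 both had log2 fold changes of -0.01.

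The other methyltransferases write H3K36 (Setd2, Nsd1, Ash1l), H3K9 (Ehmt1) and H4K20 (Kmt5b) methylation. The 4 found by symbol all had values above 0, with a median log2 fold change of 0.03. Ash1l, an autism gene, had 235, 180 and 176 CPM in vehicle and 238, 179 and 237 in BPA. Vehicle replicate 1 and BPA replicates 1 and 3 lay at 235 to 238 CPM, and the other 3 libraries at 176 to 180 CPM. Its log2 fold change was 0.14 (SE 0.131, unadjusted p = 0.297). Kmt5b, under its older symbol, showed a like order, with 189, 163 and 162 CPM in vehicle and 202, 155 and 201 in BPA (log2 fold change 0.11, SE 0.115, unadjusted p = 0.339). Setd2, Nsd1 (the Sotos syndrome gene) and Ehmt1 (the Kleefstra syndrome gene) had log2 fold changes of 0.04, 0.00 and 0.01.

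Polycomb repressive complex 2 consists of the H3K27 methyltransferase Ezh2 with Eed and Suz12, and Asxl3 belongs to the deubiquitinase complex that acts against Polycomb repressive complex 1. Values of 3 of these 4 genes were higher in BPA and 1 lower. Asxl3, the gene of Bainbridge-Ropers syndrome, had the smallest unadjusted p of the 41 genes. Its libraries read 136, 103 and 113 CPM in vehicle and 136, 116 and 144 in BPA (log2 fold change 0.17, SE 0.121, unadjusted p = 0.192). Vehicle replicate 1 lay at the level of BPA replicate 1, so the groups overlapped. Ezh2 read 179, 176 and 147 CPM in vehicle and 192, 157 and 179 in BPA (log2 fold change 0.07, SE 0.109, unadjusted p = 0.514). Eed had a log2 fold change of -0.06 and Suz12 of 0.01, the latter with 116 CPM in vehicle replicate 1 and 78 in vehicle replicate 2, the extremes of its 6 libraries.

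Among the erasers, Kdm5b removes methyl groups from H3K4, Kdm6b from H3K27, and Phf21a is a reader in the complex of the demethylase LSD1. Kdm5b was at 458, 426 and 421 CPM in vehicle and 442, 428 and 483 in BPA (log2 fold change 0.05, SE 0.0915). Kdm6b and Phf21a had log2 fold changes of 0.01 and 0.04.

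Acetylation is written by Kat6a and by the paralogs Crebbp and Ep300, which share Rubinstein-Taybi syndrome as their disorder. It is removed by complexes with Hdac4, and Ankrd11, the KBG syndrome gene, recruits deacetylases. Crebbp stood at 292, 297 and 251 CPM in vehicle and 319, 232 and 255 in BPA (log2 fold change -0.06, SE 0.118). Ep300 stood at 257, 246 and 215 CPM in vehicle and 281, 204 and 240 in BPA (log2 fold change 0.01, SE 0.116). Both paralogs were highest in BPA replicate 1 and lowest in BPA replicate 2. Ankrd11 gave 343, 370 and 305 CPM in vehicle and 409, 324 and 350 in BPA (log2 fold change 0.09, SE 0.108, unadjusted p = 0.417). Hdac4 gave 79.6, 74.8 and 75.1 CPM in vehicle and 78.5, 67.9 and 87.5 in BPA (log2 fold change 0.02, SE 0.115). Kat6a was level at 327 CPM in both groups (SD 21.5 in vehicle and 30.1 in BPA, n = 3).

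The remaining chromatin binders include Ctcf, which anchors loops of the genome, and Nipbl, which loads cohesin and is the main Cornelia de Lange syndrome gene. Ctcf had 199, 201 and 188 CPM in vehicle and 209, 201 and 189 in BPA, a spread of 1.12-fold over the libraries (log2 fold change 0.03, SE 0.0921). Nipbl had 211, 199 and 177 CPM in vehicle and 214, 172 and 188 in BPA (log2 fold change -0.03, SE 0.107). Pogz, a heterochromatin-binding autism gene, and Bptf, the large subunit of the NURF remodeller, both had log2 fold changes of 0.03. Adnp read 1.62, 1.69 and 2.17 CPM in vehicle and 2.04, 1.95 and 2.04 in BPA. At 7 to 13 counts, a difference of the size of its log2 fold change, 0.16 (SE 0.349, unadjusted p = 0.661), was not detectable.

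The complexes in which these proteins work were followed through 119 further genes in 7 lists, of which 118 were tested and Men1 was listed at 0 in each library. Values of 59 were higher and of 59 lower, and 0 passed either the adjusted or the unadjusted threshold. The 20 BAF partners had 11 higher and 9 lower values, the 16 NuRD and ChAHP partners 6 and 10, and the 13 COMPASS partners 9 and 4. Polycomb partners divided into 12 and 12, cohesin genes into 6 and 5, acetylation genes into 9 and 8, and other methylation genes into 6 and 11. The interval lay within 1.5-fold for 115 of the 118, the exceptions being Hdac1, Phf19 and Pcgf5. The smallest unadjusted p was that of Asxl2, a relative of Asxl3, which read 51.2, 41.8 and 45.2 CPM in vehicle and 61.1, 46.6 and 57.8 in BPA (log2 fold change 0.26, SE 0.13, unadjusted p = 0.0662). Its groups overlapped, with BPA replicate 2 below vehicle replicate 1.

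The 41 genes tended to lie on the same side of their means within a library, whatever its group. BPA replicate 1 had 38 of the 41 above their own 6-library mean, and vehicle replicate 3 had 2 and BPA replicate 2 had 5. The other 3 libraries had 30 (vehicle replicate 1), 27 (vehicle replicate 2) and 26 (BPA replicate 3). Over all genes tested, the share above the mean was between 50.2% and 52.1% in each library. The median deviation of the 41 genes, in log2 CPM, was 0.06, 0.04 and -0.12 in vehicle replicates 1 to 3 and 0.13, -0.12 and 0.01 in BPA replicates 1 to 3. As group means these gave -0.00367 ± 0.0987 in vehicle and 0.009 ± 0.126 in BPA (SD, n = 3), so the groups differed by less than the spread within either. The genes share libraries and are not independent of each other. Vehicle replicate 3 and BPA replicate 2, where the 41 genes were low, were also the libraries with the highest levels of the meningeal collagen gene Col1a1, at 22.7 and 13.3 CPM against 2.06 to 5.5 in the other 4. Dcn, of the same meningeal fibroblasts, stood at 8.87 and 8.29 CPM there against 0.735 to 1.75, and Col1a2 was also highest in these libraries. The next Col1a1 value, 5.5 CPM, was in BPA replicate 1, where the 41 genes were highest. Of the other genes tested from the vessel and meningeal list, Cdh5, Pdgfrb and Rgs5 were highest in vehicle replicate 3. Pecam1 and Kdr were highest in vehicle replicate 2, and Cldn5 in BPA replicate 3. The part of these cells in the values of the 41 genes was not tested.

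**Figure D3:**
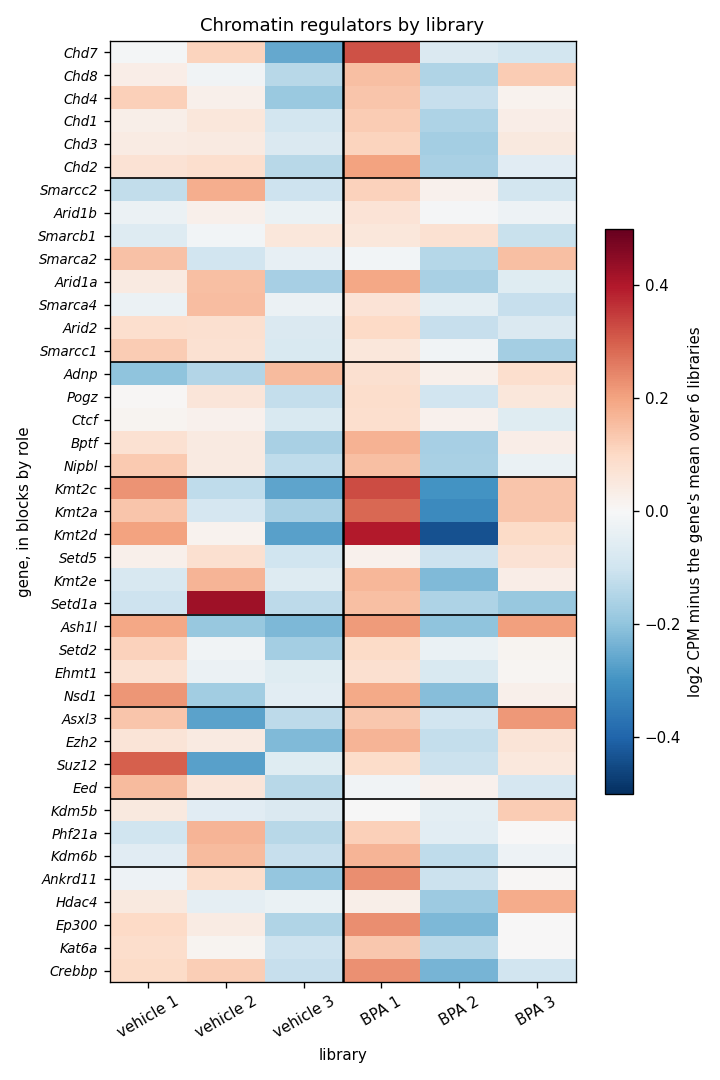
Log2 CPM of each of the 41 chromatin regulators minus its mean over the 6 libraries (red, above; blue, below), with genes in blocks by role and the vertical line dividing vehicle from BPA. BPA replicate 1 is mostly red (38 of 41 above the mean), and vehicle replicate 3 (2 of 41) and BPA replicate 2 (5 of 41) are mostly blue.

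Length and this pattern moved together in some libraries and apart in others. The 41 genes had a median exonic length of 10737 bases, and 32 of them were among the 3282 longest genes tested (6994 bases and over). Those 3282 genes had median deviations of 0.06, -0.03 and -0.06 in vehicle and 0.05, -0.07 and 0.05 in BPA. The 3285 shortest genes (2751 bases and under) had deviations of -0.04, 0.04 and 0.08 in vehicle and -0.04, 0.08 and -0.07 in BPA, opposite in sign to the longest in each library. The sign of the 41 genes was that of the longest genes in 5 of the libraries and that of the shortest in vehicle replicate 2, and in BPA replicate 3 they lay closer to 0 than the longest genes did. With offsets that level each library over exonic length, the median deviations of the 41 genes became 0.01, 0.07 and -0.06 in vehicle and 0.09, -0.05 and -0.04 in BPA. The numbers above their mean were then 21, 32 and 7 in vehicle and 36, 12 and 13 in BPA. BPA replicate 3 thus went from 26 to 13, and vehicle replicate 2 from 27 to 32. With offsets over GC content instead, the numbers were 30, 27 and 2 in vehicle and 38, 4 and 20 in BPA.

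**Figure D4:**
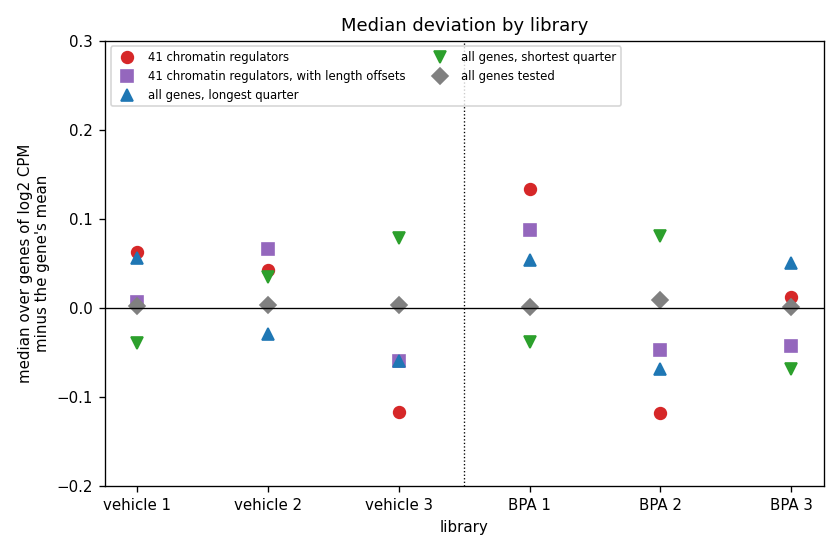
Median over genes of log2 CPM minus the gene's mean, by library, for the 41 chromatin regulators (red), the same with length offsets (purple), the longest (blue) and shortest (green) of the genes tested, and all genes tested (grey). The chromatin regulators run from -0.12 to 0.13 without offsets and from -0.06 to 0.09 with them, and all genes tested stay near 0.

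The spread of single genes over the 6 libraries differed among the 41. Kmt2d varied most, 1.78-fold from its lowest to its highest library, followed by Kmt2c (1.54-fold), Setd1a (1.53-fold), Kmt2a (1.52-fold), Chd7 (1.49-fold) and Suz12 (1.48-fold). Arid1b (1.08-fold), Ehmt1 (1.11-fold) and Ctcf (1.12-fold) varied least. Leaving out Adnp, the 20 longer genes (10754 bases and over) had a median spread of 1.31-fold and the 20 shorter ones 1.23-fold. The highest library of 24 of the 41 genes was BPA replicate 1, and the lowest was BPA replicate 2 for 20 and vehicle replicate 3 for 13. Leaving out vehicle replicate 1 brought Ash1l (log2 fold change 0.29) and Asxl3 (0.29) to an unadjusted p under 0.05, and leaving out BPA replicate 2 did so for Ash1l (0.27) and Kmt2a (0.25). These 2 of 41 (4.88%) stand beside 2.48% of all genes tested without vehicle replicate 1 and 4.02% without BPA replicate 2. In neither case did a gene of the 41 pass the adjusted threshold.

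**Figure D5:**
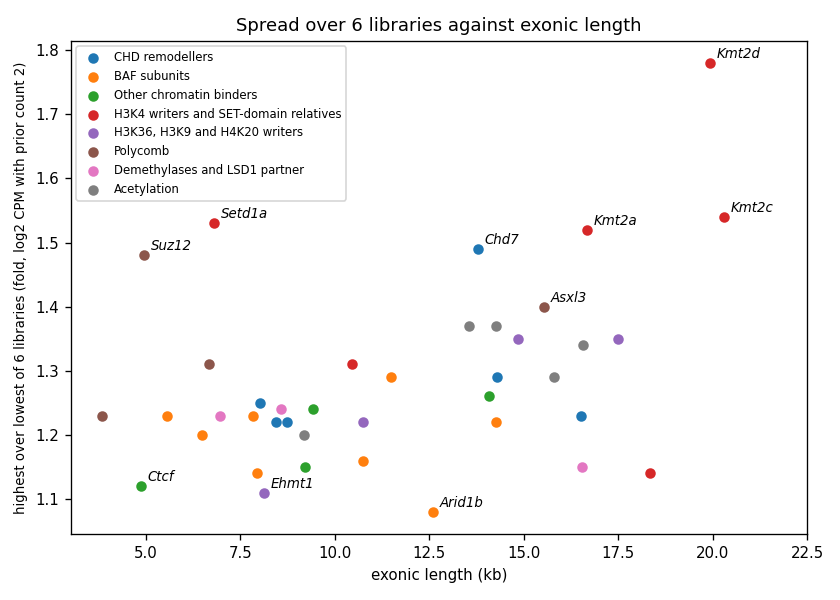
Ratio of the highest to the lowest of the 6 libraries (from log2 CPM with a prior count of 2) against exonic length in kb for 40 chromatin regulators (Adnp, with 7 to 13 counts, left out), coloured by role. Kmt2d is highest at 1.78-fold, Arid1b lowest at 1.08-fold, and Suz12 and Setd1a are the shorter genes with a wide spread.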

How the data were processed

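Strand-specific libraries of fetal cortex were sequenced as single 50-base reads. The authors aligned the reads with TopHat 2.0.14 to GRCm38 and deposited raw counts per gene symbol, counted with featureCounts; the strand and multi-mapping options are not given in the sources used here. The submitters' processing notes also name StringTie 1.2.4.

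Groups were taken from the treatment label, and replicate numbers only name libraries. Genes were kept by filterByExpr (minimum count 10), which left 13741 genes holding 99.7% of counts. TMM-scaled counts were fitted with the edgeR quasi-likelihood test (edgeR 4.0.16, R 4.3.3) over the 6 libraries, with Benjamini-Hochberg adjustment over the 13741 genes and a threshold of 0.1. The biological coefficient of variation was 0.106. Log2 CPM used a prior count of 2. Exonic lengths and overlaps came from GENCODE M21. DESeq2 1.42.0, limma-voom (limma 3.58.1), other scalings, filters, length and GC offsets, thinning and leaving out each library were alternatives.

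Values in each library are given for the 10 genes with the smallest unadjusted p, for a set of disease genes listed by name, and for the highest and lowest genes per kb. The 42 genes, the partner lists and the marker lists were all drawn up with earlier results of these data known, although the rule for the 42 uses names and no values.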

Additional observations from a re-analysis of the deposited data

How the results depend on the processing

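Over the 17 alternatives, the count of chromatin regulators past the adjusted threshold stayed at 0, and the smallest adjusted p of any was 0.966. The number at an unadjusted p under 0.05 was 0 in each alternative that kept the 6 libraries, and 0 to 2 when 1 library was left out (0% to 4.88%, against 1.38% to 5.1% of all genes tested). Leaving out 1 library also gave 1 to 4 chromatin regulators whose groups did not overlap (2.44% to 9.76% of the 41, against 12.2% to 19.7% of all genes tested in the same fits), and 0 to 2 partner genes at an unadjusted p under 0.05. With the counts thinned to the smallest total, 1 partner gene (Asxl2) passed that threshold, and the cause was not tested. The median log2 fold change ran from -0.04 (without BPA replicate 1) to 0.07 (without BPA replicate 2), and was also below 0 without vehicle replicate 3 (-0.03) and with length offsets (-0.01). The interval lay within 1.5-fold for 39 to 40 genes in the alternatives that gave intervals, which the classic exact test did not. With the filter at 10 CPM and with thinned counts, 40 genes were tested, and the interval of each lay within 1.5-fold. Over all settings, 34 of the 41 genes changed sign at least once and 7 kept it. No paired analysis was run, because the labels name no pairs and the replicate numbers only follow accession order. Whether any vehicle and BPA libraries belong together is not stated. Over the whole table, testing each gene with at least 1 count called 19 genes, against 0, with 0 of them among the 41. The interval of Adnp, at 7 to 13 counts, was the widest of the 41, and the cause of its low count was not tested.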
